A study of Mus musculus with 24 samples.

Results

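The ligands and receptors that steer growing axons form 4 systems, semaphorins with plexins and neuropilins, ephrins with Eph receptors, Slits with Robo receptors, and netrins with their receptors. The autosomal protein-coding members were chosen by gene symbol, which gave 69 genes, 36 for ligands and 33 for receptors, of 20807 autosomal protein-coding genes in GENCODE vM21, and left out 3 members on the X chromosome. A differentially 5-hydroxymethylated region (DhMR) was assigned to a member when the whole window lay inside the gene span on GRCm38, or when the deposited list gave that gene's identifier for the window. This placed 114 of the 20726 deposited windows at 41 of the 69 genes, and 28 genes had none. By the same rule 7254 of all 20807 genes had a window.

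The windows come from 5hmC-DIP, in which an antibody recovers DNA fragments that carry 5-hydroxymethylcytosine (5hmC), in mouse embryonic stem cells (ESCs) that lack *Tet1*, *2* and *3* and re-express human Tet3. The Wt25 line carries wild-type Tet3 and the AA10 line carries the phosphor-mutant AA, in which both phosphorylated serines are alanines. Both lines were grown in 2i medium with LIF on a mixed C57BL/6J-129V background, and both were made by lentiviral infection and puromycin selection. Each line is a single clone, so a difference between the Tet3 proteins and a difference between clones cannot be told apart. There were 3 5hmC-DIP libraries per line, and the authors compared them together in bins of 200 bp and deposited 1 list per direction, with 12096 windows of higher 5hmC in Wt25 cells and 8630 of higher 5hmC in AA10 cells. The lists hold positions and neither counts of reads nor a size or *P*-value of the difference, so no window can be ranked, the spread between libraries cannot be computed and no test was run. Depth is unknown from the lists, and the 95% Wilson intervals given with shares cover counting error only. These intervals treat windows as independent, though several can belong to the same gene, so they may be too narrow.

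Tet enzymes oxidise 5-methylcytosine to 5hmC, mostly at CpG dinucleotides, and Tet3 is the member of the family best known from the oocyte and from neurons. Semaphorins signal through plexins, with neuropilins as co-receptors for the secreted class 3, while ephrins are membrane-bound ligands of the Eph receptor tyrosine kinases and signal in both cells of a contact. Slits are large secreted repellents read by Robo receptors, and netrins attract axons through Dcc and neogenin or repel them through the Unc5 receptors.

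The windows on which the description turns are shown as the plus strand of GRCm38.p6 with every CpG in capitals, which are the positions where 5hmC can lie in both strands. Those of *Ephb2*, the member with most windows, are its only promoter window and the intron 1 window with most CpGs.
*Ephb2*, higher in Wt25, chr4:136836803-136837000: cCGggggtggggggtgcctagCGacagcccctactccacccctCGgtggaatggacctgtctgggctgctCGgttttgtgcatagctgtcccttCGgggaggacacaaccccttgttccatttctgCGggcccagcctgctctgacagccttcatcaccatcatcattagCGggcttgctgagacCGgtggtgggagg
*Ephb2*, higher in Wt25, chr4:136782003-136782200: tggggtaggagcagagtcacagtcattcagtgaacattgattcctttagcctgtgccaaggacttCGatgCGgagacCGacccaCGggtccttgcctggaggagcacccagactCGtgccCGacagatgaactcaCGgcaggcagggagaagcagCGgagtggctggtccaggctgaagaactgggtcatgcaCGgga
At *Dcc*, *Epha2*, *Slit1* and *Ntn1* a window of each direction lay within 10 kb of the other, and all but the *Dcc* pair are shown for their different letters at close positions.
*Epha2*, higher in Wt25, chr4:141326403-141326600: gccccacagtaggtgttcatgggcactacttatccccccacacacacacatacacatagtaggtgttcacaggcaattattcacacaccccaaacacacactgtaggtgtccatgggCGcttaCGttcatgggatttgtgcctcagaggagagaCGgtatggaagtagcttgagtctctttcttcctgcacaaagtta
*Epha2*, higher in AA10, chr4:141327803-141328000: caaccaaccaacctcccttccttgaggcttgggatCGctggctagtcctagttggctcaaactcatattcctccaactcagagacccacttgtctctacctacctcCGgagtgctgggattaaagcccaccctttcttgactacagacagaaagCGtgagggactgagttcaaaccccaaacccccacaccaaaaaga
*Slit1*, higher in AA10, chr19:41651603-41651800: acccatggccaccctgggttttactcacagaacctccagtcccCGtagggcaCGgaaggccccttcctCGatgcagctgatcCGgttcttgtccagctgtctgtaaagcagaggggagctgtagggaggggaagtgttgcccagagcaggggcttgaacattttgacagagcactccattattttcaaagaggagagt
*Slit1*, higher in Wt25, chr19:41655003-41655200: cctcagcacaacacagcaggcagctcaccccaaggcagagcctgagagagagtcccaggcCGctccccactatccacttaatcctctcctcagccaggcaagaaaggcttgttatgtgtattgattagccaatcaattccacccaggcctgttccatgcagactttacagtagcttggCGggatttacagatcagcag
*Ntn1*, higher in AA10, chr11:68352203-68352400: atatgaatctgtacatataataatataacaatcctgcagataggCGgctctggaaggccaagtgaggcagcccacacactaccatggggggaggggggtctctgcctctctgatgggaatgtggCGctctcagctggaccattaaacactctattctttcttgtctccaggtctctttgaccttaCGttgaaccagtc
*Ntn1*, higher in Wt25, chr11:68361603-68361800: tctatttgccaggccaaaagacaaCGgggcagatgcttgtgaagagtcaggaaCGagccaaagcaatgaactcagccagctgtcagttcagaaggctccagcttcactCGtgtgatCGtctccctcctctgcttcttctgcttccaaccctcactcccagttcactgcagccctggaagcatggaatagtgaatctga
The next windows are the CpG-richest of *Epha4*, *Slit3* and *Nrp2*, members with most of their windows on the AA10 side, followed by 1 window of the touching pair inside *Robo1* and by the *Sema3c* window, which repeat marks cover completely.
*Epha4*, higher in AA10, chr1:77534203-77534400: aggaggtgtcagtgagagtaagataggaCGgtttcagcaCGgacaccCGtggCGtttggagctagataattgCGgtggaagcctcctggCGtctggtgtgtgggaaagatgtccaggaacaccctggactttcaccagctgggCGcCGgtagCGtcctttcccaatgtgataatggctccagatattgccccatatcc
*Slit3*, higher in AA10, chr11:35392203-35392400: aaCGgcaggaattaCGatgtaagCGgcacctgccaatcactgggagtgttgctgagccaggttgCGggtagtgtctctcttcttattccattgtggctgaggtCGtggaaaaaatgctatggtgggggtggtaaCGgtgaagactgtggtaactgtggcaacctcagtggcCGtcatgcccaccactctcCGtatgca
*Nrp2*, higher in AA10, chr1:62724803-62725000: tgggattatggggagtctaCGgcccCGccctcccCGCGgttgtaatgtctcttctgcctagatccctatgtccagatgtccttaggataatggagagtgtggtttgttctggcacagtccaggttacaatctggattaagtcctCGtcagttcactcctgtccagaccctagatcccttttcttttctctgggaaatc
*Robo1*, higher in Wt25, chr16:73011603-73011800: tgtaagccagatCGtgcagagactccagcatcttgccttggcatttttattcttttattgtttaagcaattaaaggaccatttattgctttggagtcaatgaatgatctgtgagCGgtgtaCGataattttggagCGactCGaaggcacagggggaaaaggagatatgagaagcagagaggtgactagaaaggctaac
*Sema3c*, higher in Wt25, chr5:17682603-17682800: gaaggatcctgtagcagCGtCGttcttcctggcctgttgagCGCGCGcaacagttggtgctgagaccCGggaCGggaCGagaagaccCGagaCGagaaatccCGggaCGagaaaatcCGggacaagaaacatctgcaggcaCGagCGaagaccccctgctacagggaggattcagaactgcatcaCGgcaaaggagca

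Higher 5hmC in Wt25 cells was found at 74 of the 114 windows and higher 5hmC in AA10 cells at 40, a Wt25 share of 64.9% (95% interval 55.8 to 73.1). Over the 17935 windows of all autosomal protein-coding genes, assigned in the same way, the Wt25 share was 58.8%, a value inside that interval. Without *Ephb2*, which alone had 13 Wt25 windows, the members' share was 60.4% (50.6 to 69.4) against 58.7% for all genes. With the windows inside the gene spans alone the order turned, at 60.3% for the members and 61.1% for all genes. The members with windows on the Wt25 side alone numbered 23 and those with windows on the AA10 side alone 11, while *Dcc*, *Efnb2*, *Epha2*, *Epha4*, *Ntn1*, *Slit1* and *Slit3* had windows of both directions. At least 1 Wt25 window was present at 30 of the 69 members, or 43.5%, against a background of 22.8% of all genes. At least 1 AA10 window was present at 18 members, or 26.1%, against a background of 17%. Windows of both directions were present at 10.1% of the members against 4.95% of all genes. Among genes of 100 kb or longer the order turned, at 14.7% of the members against 17.4% of all genes.

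**Figure D1:**
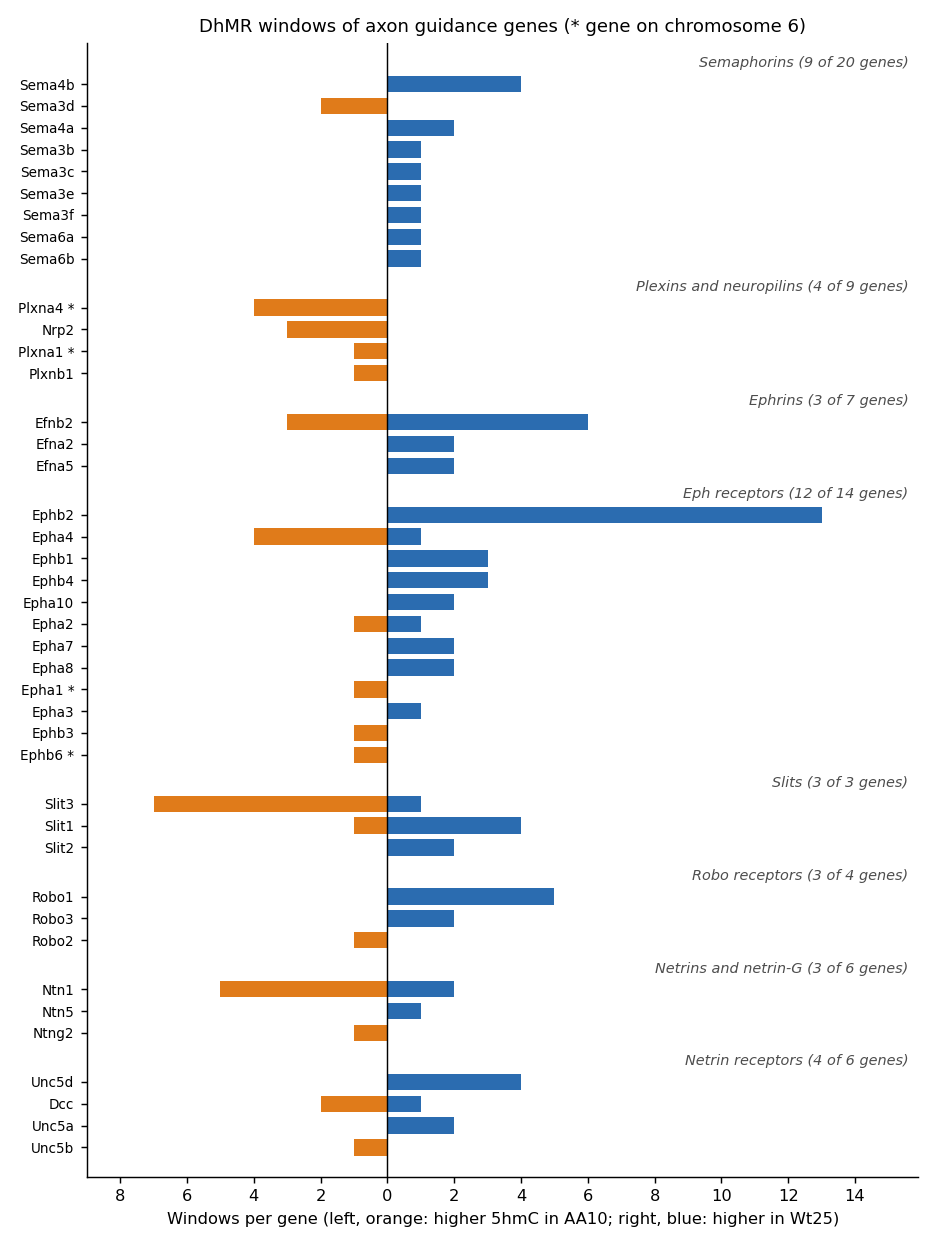
Number of DhMR windows per gene (horizontal axis, windows) for the 41 axon guidance genes with a window, grouped by family, with blue bars to the right for higher 5hmC in Wt25 and orange bars to the left for higher 5hmC in AA10. *Ephb2* reached 13 Wt25 windows and *Slit3* 7 AA10 windows, and every plexin and neuropilin bar points to the AA10 side.

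Members are long genes, with a median span of 69.0 kb against 17.6 kb for all genes, and long genes hold more windows. Among the 34 members of 100 kb or longer, 47.1% had a Wt25 window and 26.5% an AA10 window, against 45.5% and 37.3% of the 2372 genes of that length. The higher share of members with a Wt25 window was therefore small among long genes, and the share with an AA10 window lay below the background. Among the 35 shorter members the shares were 40% for Wt25 and 25.7% for AA10, against 19.9% and 14.4% of the 18435 shorter genes. Per length, the spans of the members held 0.509 windows per 100 kb, of which 0.307 were Wt25 and 0.202 AA10 windows, while the spans of all genes held 1.08 when a window was counted for every gene around it. The density below the background was that of the long members, at 0.407 against 0.742 windows per 100 kb, and the shorter members held 1.90 against 1.57. Members of 100 to 200 kb had a mean of 1.67 windows inside, against 1.54 for all genes. Those of 200 to 500 kb had 0.667 against 1.98, and those of 500 kb or longer 2 against 3.92. The shorter genes were not matched for length, since 1 member and 3776 of all genes spanned under 5 kb.

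The shares of ligands and receptors changed when the windows outside the gene spans, near or distant, were left out. The 36 ligand genes had 32 Wt25 and 19 AA10 windows, a Wt25 share of 62.7% (49.0 to 74.7), and the 33 receptor genes had 42 and 21, a share of 66.7% (54.4 to 77.1). Inside the gene spans the ligands had 14 Wt25 and 16 AA10 windows, 46.7% (30.2 to 63.9), and the receptors 24 and 9, 72.7% (55.8 to 84.9). These intervals overlap, and the difference was not tested. The families differed in how densely their spans were covered. The Slits held 1.33 windows per 100 kb inside their spans, the netrins 1.09 and the Eph receptors 0.806. At the other end the semaphorins held 0.260 and the netrin receptors 0.0859, with *Dcc* alone giving both windows of that family inside a gene. Between them lay the plexins and neuropilins with 0.419, the Robo receptors with 0.310 and the ephrins with 0.277. The Slits and the netrins were thus the families closest to or above the density of all genes.

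**Figure D2:**
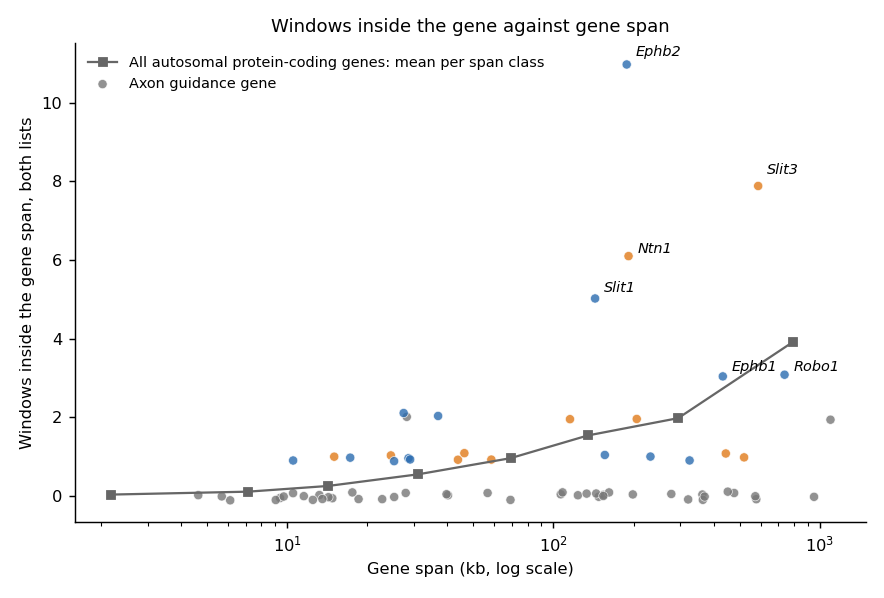
Number of windows of both lists inside each gene span (vertical axis, windows) against gene span in kb (horizontal log axis). Each point is an axon guidance gene, moved up or down by at most 0.12 so that points do not hide each other, in blue for more Wt25 windows, orange for more AA10 windows and grey for equal numbers or none, and squares give the mean of all autosomal protein-coding genes per span class. *Ephb2* with 11, *Slit3* with 8, *Ntn1* with 6 and *Slit1* with 5 windows stand above the line of means.

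The ephrin and Eph receptor system carried 49 of the 114 windows, 38 of Wt25 and 11 of AA10, a Wt25 share of 77.6% (64.1 to 87). Its receptors had windows at 12 of 14 genes, the highest number of genes of any family, with 28 Wt25 and 8 AA10 windows. A window was present at 7254 of all 20807 genes, and at 1551 of the 2372 genes of 100 kb or longer. The EphB receptors, which mostly bind B-type ephrins, had 19 Wt25 and 2 AA10 windows over all 5 genes. The EphA receptors, which mostly bind A-type ephrins, had 9 Wt25 and 6 AA10 windows over 7 of 9 genes.

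*Ephb2*, a receptor for B-type ephrins with roles in axon pathfinding and at synapses, had 13 windows, all of higher 5hmC in Wt25 cells. The gene lies on the minus strand at chr4:136647539-136835988 and spans 188 kb, and 11 of its windows lay inside it, at 5.84 per 100 kb. Intron 1 held 8 of them, between 3.49 and 58.9 kb from the gene start, introns 3 and 5 held the other three, and a promoter window and a window 21.3 kb upstream lay before the gene. The promoter window, printed above, lay 0.913 kb before the gene start and held 8 CpGs, and the windows inside held from 1 to 9. The nearest AA10 window was at least 243 kb away from any of these windows. As a description of how crowded this gene was, 110 of all 20807 genes (0.529%) had 11 or more windows inside, and 53 of the 2372 genes of 100 kb or longer had at least its density. *Epha8*, the neighbouring Eph gene on the same chromosome, had a touching pair of Wt25 windows in intron 5, with 1 CpG each. Without *Ephb2*, the Eph receptors had 15 Wt25 and 8 AA10 windows.

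**Figure D3:**
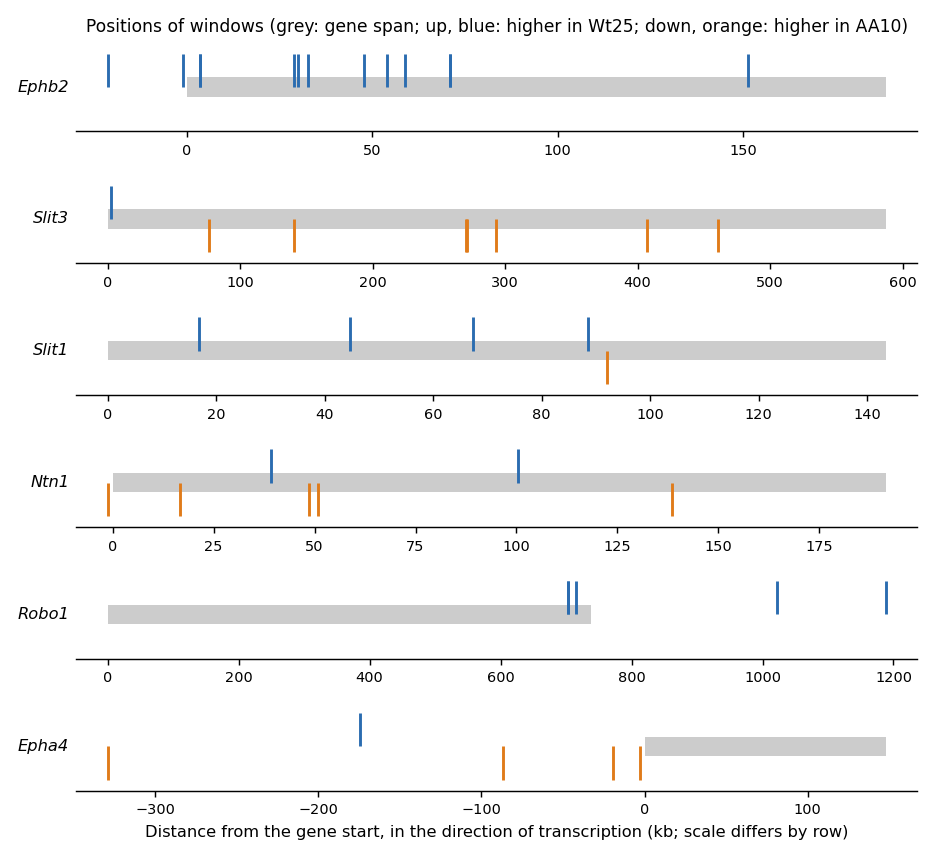
Positions of the windows of 6 members in kb from the gene start in the direction of transcription (horizontal axis, scaled row by row), with the gene span in grey, Wt25 windows as blue lines upward and AA10 windows as orange lines downward. The *Ephb2* windows crowd the start of the gene, 7 of 8 *Slit3* windows are AA10 windows far from its start, and the windows of *Epha4* all lie before the gene.

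The other EphB receptors had few windows. *Ephb1*, a receptor that guides retinal axons at the midline, had 3 Wt25 windows inside its 433 kb, at 164, 237 and 314 kb from the start, all listed by the authors under the microRNA gene *Mir7243*. *Ephb4*, the receptor that marks veins, had 3 Wt25 windows at its end, of which 1 was inside the gene and 2 lay 3.53 and 7.93 kb downstream, over *Zan*. These 3 windows held 5, 7 and 3 CpGs. *Ephb3* had a single AA10 window, 9.45 kb upstream. *Ephb6*, which lacks kinase activity, had 1 AA10 window in intron 6 and lies on chromosome 6, where nearly all windows of the lists are of that direction.

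Among the EphA receptors, *Epha4*, which binds ephrins of both types, had 4 AA10 windows and 1 Wt25 window, and none of them inside its 148 kb. The AA10 windows lay 2.61, 19.2, 86.6 and 329 kb upstream of the start and the Wt25 window 175 kb upstream, between them. The window at 19.2 kb, printed above, held 9 CpGs, the most of any member window on the AA10 side. *Epha2*, an ephrin-A receptor also expressed in ESCs, had windows of both directions in intron 16, separated by 1.20 kb and with 3 CpGs each. *Epha10*, another kinase-dead receptor, had 2 Wt25 windows, 21.6 and 30.6 kb from the start of its 36.9 kb span. *Epha7* had 2 Wt25 windows 156 and 726 kb upstream, with repeat marks over 99.5% and 100% of their bases. *Epha3* had 1 Wt25 window 165 kb upstream with a single CpG, and *Epha1*, on chromosome 6, had 1 AA10 window 12.4 kb upstream.

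The ephrins had 10 Wt25 and 3 AA10 windows, nearly all of them outside the genes. Windows were present at 3 of the 7 ephrin genes, against 7254 of all 20807 genes. *Efnb2*, the ligand that marks arteries and guides axons through EphB receptors, had 6 Wt25 and 3 AA10 windows. Only an AA10 window in intron 1, 2.74 kb from the start, was inside its 43.8 kb. A Wt25 window lay 7.66 kb upstream, 10.2 kb from that AA10 window. The other seven were spread downstream from 9.03 to 1445 kb past the gene, 5 of Wt25 and 2 of AA10, so that most of its windows rest on the deposited identifier alone. *Efna2* had 2 Wt25 windows 3.39 and 10.4 kb past its end, with 4 and 5 CpGs. *Efna5*, which helps to map retinal axons, had Wt25 windows 143 kb upstream and 1188 kb downstream of its span.

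The Slit and Robo system had 14 Wt25 and 9 AA10 windows, a Wt25 share of 60.9% (40.8 to 77.8). Inside the gene spans each list had 9 windows, a share of 50% (29.0 to 71.0). All 3 Slit genes, each of 100 kb or longer, had windows, as did 1551 of all 2372 genes of that length. The Slit genes did not share a direction. *Slit3*, at chr11:35121224-35708507, had 7 AA10 windows and 1 Wt25 window, all inside its 587 kb. The Wt25 window lay in intron 1 at 2.28 kb from the start, and the AA10 windows lay in introns 3, 4, 5 and 9 from 76.7 to 461 kb, so that the closest windows of opposite direction were 74.2 kb apart. A touching pair in intron 4 is among the AA10 windows, and its second window, printed above, had 8 CpGs. The authors' annotation gave *Mir218-2*, a microRNA gene inside *Slit3*, for 5 of the 7 AA10 windows. Without *Slit3* the Slits and Robo receptors had 13 Wt25 and 2 AA10 windows.

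*Slit1*, the Slit most restricted to the nervous system, showed the other pattern, with 4 Wt25 windows and 1 AA10 window inside its 143 kb. The Wt25 windows lay 16.8, 44.8, 67.4 and 88.6 kb from the start, in introns 3 and 4. The AA10 window followed at 92.0 kb in coding exon 6, 3.20 kb past the nearest Wt25 window. These adjacent windows, both printed above, had 4 CpGs on the AA10 side and 2 on the Wt25 side. *Slit2* had 2 Wt25 windows, of which 1 lay in coding exon 39 at 321 kb from the start, with 9 CpGs, and 1 lay 896 kb upstream.

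The Robo receptors had 7 Wt25 windows and 1 AA10 window. *Robo1*, a receptor for all Slits, had 5 Wt25 windows, none near its start. A touching pair in intron 23 and a window in intron 24 lay between 703 and 715 kb from the start of the 738 kb gene, and 2 windows lay 285 and 450 kb past its end. *Robo3*, which lets commissural axons cross the midline, had Wt25 windows 22.7 and 24.5 kb upstream. *Robo2*, the neighbour of *Robo1* on chromosome 16, had a single AA10 window in intron 1, 1.12 kb from the start. *Robo4*, a receptor of blood vessels, had none.

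The netrin system had 10 Wt25 and 9 AA10 windows, a Wt25 share of 52.6% (31.7 to 72.7), which turned to 40% (16.8 to 68.7) with the 10 windows inside the gene spans alone. Its main ligand *Ntn1* had 5 AA10 and 2 Wt25 windows, and 6 of the 7 were inside its 191 kb. The AA10 windows lay at 16.7, 48.5, 50.9 and 139 kb from the start and 1.28 kb upstream of it, and the Wt25 windows at 39.1 and 100.3 kb. The directions therefore alternated along introns 3 and 4, with 9.20 kb between the closest windows of opposite direction, both printed above. *Ntn5* had 1 Wt25 window in intron 2, which also lies over *Sec1*. *Ntng2*, which encodes a membrane-anchored netrin-G that does not bind Dcc, had 1 AA10 window 2.10 kb from the start, with 8 CpGs.

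*Dcc*, the attractive netrin receptor and at 1097 kb the longest member, had only 3 windows, all near its start or before it. A Wt25 window in the 5′ UTR at 0.568 kb held 8 CpGs, and an AA10 window in intron 1 at 1.37 kb held 3. These lay 0.602 kb apart, the shortest distance between the directions at any member. The other AA10 window lay 71.6 kb upstream. *Unc5d*, a repulsive netrin receptor, had 4 Wt25 windows, all far upstream between 362 and 635 kb and with 1 or 2 CpGs. *Unc5a* had 2 Wt25 windows 41.3 and 76.9 kb upstream, and *Unc5b* had 1 AA10 window 3.32 kb upstream.

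In the semaphorin and plexin system most of the few ligand windows were Wt25 windows and all receptor windows were AA10 windows. The semaphorins had 12 Wt25 and 2 AA10 windows, a Wt25 share of 85.7% (60.1 to 96.0). Windows were present at 9 of the 20 semaphorin genes, against 7254 of all 20807 genes. Inside the gene spans the semaphorins had 5 and 2, a share of 71.4% (35.9 to 91.8). The plexins and neuropilins had 9 AA10 windows and no Wt25 window at 4 of 9 genes, which at 0 of 9 windows leaves an upper limit of 29.9% for the Wt25 share. Of the 9 windows, 5 belong to *Plxna1* and *Plxna4* on chromosome 6, where all windows of the lists show a Wt25 share of 12%. The other 4, of which 3 are at *Nrp2* and 1 at *Plxnb1*, leave an upper limit of 49.0%. Both limits treat windows of the same gene as independent and may be too low. How far the chromosome accounts for the receptors' direction was not tested.

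*Sema4b*, a membrane-bound class 4 semaphorin, had the most windows of the semaphorins, 4 Wt25 windows between 1.74 and 25.7 kb upstream and none inside the gene. *Sema4a*, of the same class, had 1 Wt25 window inside, 2.48 kb from the start, and 1 at 3.12 kb upstream. The class as a whole had 6 Wt25 windows and no AA10 window, at 2 of 6 genes. The secreted class 3 semaphorins had 4 Wt25 and 2 AA10 windows at 5 of 7 genes. *Sema3d* held both AA10 windows, in introns 14 and 17 near the end of the gene, each with 1 CpG. Single Wt25 windows were found 6.07 kb upstream of *Sema3b*, in intron 11 of *Sema3c*, in intron 5 of *Sema3e* and 1.97 kb inside *Sema3f*. The *Sema3c* window, printed above, had 16 CpGs and lay wholly in repeat-marked sequence, and that of *Sema3e* had 95.5% repeat-marked bases. Of the transmembrane class 6, *Sema6b* had 1 Wt25 window in its 3′ UTR with 19 CpGs, the highest number of all member windows, and *Sema6a* had 1 at 16.0 kb past its end.

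*Plxna4*, a receptor for class 3 and class 6 semaphorins, had 4 AA10 windows, of which 3 lay together between 197.9 and 199.9 kb upstream and 1 in intron 22. *Nrp2*, the co-receptor for *Sema3f*, had 3 AA10 windows on chromosome 1, 2 in intron 2 at 21.6 and 31.4 kb from the start and 1 at 272 kb upstream, inside *Pard3b*. The first of the intron windows, printed above, had 5 CpGs. *Plxna1* had 1 AA10 window in intron 23 and *Plxnb1*, a receptor for class 4 semaphorins, 1 in intron 28.

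Some long members had no window at all, 14 of 34, where 821 of all 2372 genes of 100 kb or longer had none. Of the 35 shorter members 14 had none, against 12732 of all 18435 shorter genes. The 14 genes of at least 100 kb without one were *Epha5*, *Epha6*, *Neo1*, *Nrp1*, *Ntn4*, *Ntng1*, *Plxna2*, *Plxnc1*, *Sema3a*, *Sema4d*, *Sema5a*, *Sema5b*, *Sema6d* and *Unc5c*. They include *Epha6* with 952 kb and *Sema6d* with 578 kb, and several partners of genes that had windows, such as *Nrp1* beside *Nrp2*. The 14 shorter genes without a window were *Efna1*, *Efna3*, *Efna4*, *Efnb3*, *Ntn3*, *Plxnb2*, *Plxnd1*, *Robo4*, *Sema3g*, *Sema4c*, *Sema4f*, *Sema4g*, *Sema6c* and *Sema7a*. A gene without a listed window may carry 5hmC in both lines, since the lists hold differences alone.

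Chromosomes differ in the direction of all their windows, so the members are given beside them. On chromosome 4 the members had 20 Wt25 windows and 1 AA10 window, 13 of them at *Ephb2*, where all windows of the chromosome had a Wt25 share of 66.3%. On chromosome 11, where that share was 62.1%, *Slit3* and *Ntn1* gave the members 3 Wt25 and 12 AA10 windows. On chromosome 1, with a share of 42.9%, *Epha4* and *Nrp2* gave them 1 Wt25 and 7 AA10 windows. On chromosome 6, 136 of all windows were Wt25 and 1000 AA10, and the 6 members there had 7 AA10 windows at *Epha1*, *Ephb6*, *Plxna1* and *Plxna4* and none at *Plxnd1* and *Sema4f*. Without chromosome 6 the members had 74 Wt25 and 33 AA10 windows, a share of 69.2% (59.9 to 77.1), against 61.4% for all genes. The Wt25 share of all windows on a member window's chromosome, averaged over the 114 member windows, was 59.8%, which is a background value for the members' 64.9%.

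**Figure D4:**
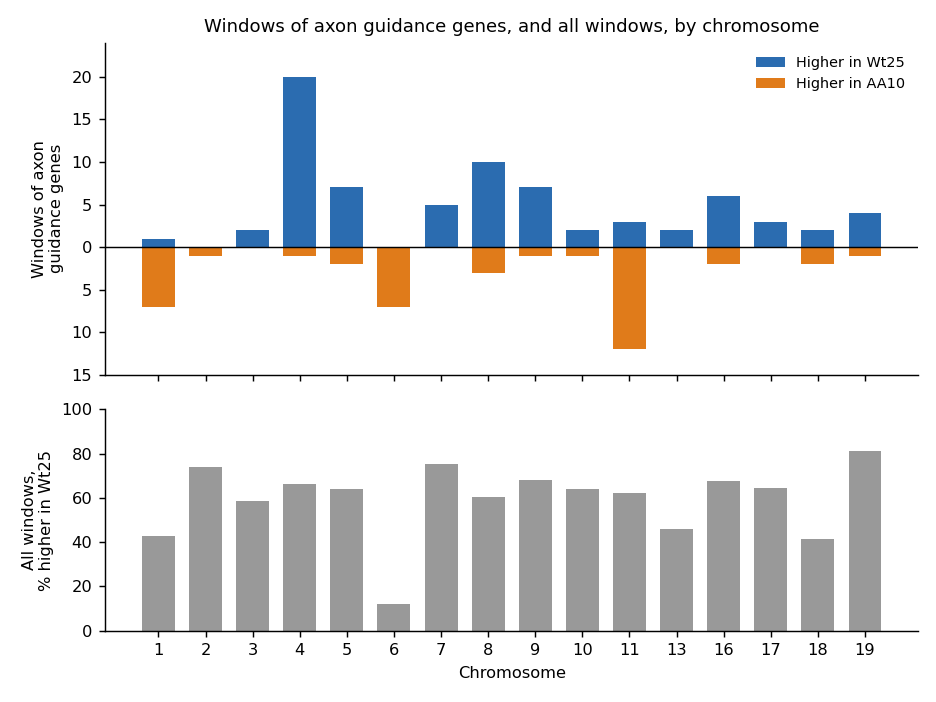
Windows of axon guidance genes on each chromosome that holds any (upper panel, number of windows, blue upward for Wt25 and orange downward for AA10) and the percent of all deposited windows of that chromosome with higher 5hmC in Wt25 (lower panel). Chromosome 6 had no Wt25 window of a member and the lowest share of all windows, 12%, while chromosome 11 had 12 AA10 windows of members at a share of 62.1%.

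By position, 63 of the 114 windows lay inside a member, 38 of Wt25 and 25 of AA10. The other 51, 36 of Wt25 and 15 of AA10, belonged to a member by the deposited identifier alone, at a median of 71.5 kb outside the span and between 0.815 and 1445 kb. Of these, 36 lay upstream and 15 downstream, and the downstream windows were 13 of Wt25 and 2 of AA10, 7 of them at *Efnb2*. Introns held 55 windows, 31 of Wt25 and 24 of AA10. Intron 1 alone held 9 Wt25 windows, 8 of them in *Ephb2*, and 3 AA10 windows, in *Dcc*, *Efnb2* and *Robo2*. Along the span from start to end, 33 of the windows inside lay before its midpoint and 30 past it. Exons were rare, with coding exon windows at *Slit1* and *Slit2* and UTR windows at *Dcc*, *Sema6b* and, in a shorter transcript, *Ephb1*. Within 5 kb of a gene start, on either side, there were 9 Wt25 and 7 AA10 windows. Of the windows inside a member, 20 carried the deposited identifier of another gene, which is the case for those of *Ephb1*, *Epha10* and most of *Slit3*.

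Most windows of the members stood alone. Of the 114, 12 touched another window of their list, or 10.5% against 25.6% of all windows. None lay in a dense run of at least 20 consecutive windows of 1 list with gaps of at most 10 kb, where 15.1% of all windows lie. Touching windows were found at *Ephb2*, *Epha8*, *Slit3*, *Robo1* and *Plxna4*.

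The mean CpG number was nearly the same on both sides. The Wt25 windows held 3.46 ± 3.16 CpGs (SD, n = 74 windows) and the AA10 windows 3.48 ± 2.03 (SD, n = 40 windows), with a mean of 3.21 over all windows of the lists. Their spread differed in that the Wt25 windows ran from 1 to 19 CpGs, with *Sema6b* and *Sema3c* at the top, and the AA10 windows from 1 to 9, with *Epha4* at the top. Windows with a single CpG were more frequent on the Wt25 side, at 25.7%, than on the AA10 side, at 12.5%, and made up 23.6% of all windows. Median GC content was 51.0% against 47.0% for all windows. At least 50% repeat-marked bases were found in 18 member windows, 15 of Wt25 and 3 of AA10, or 15.8% against 26.6% of all windows. The letters CCGG, the palindromic site of *Msp*I with which the 5hmC of single sites can be measured, were present in 34 windows (29.8%, 22.2 to 38.8) against 21.7% of all windows of the same length. These are properties of the letters, and no difference between the lists was tested.

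**Figure D5:**
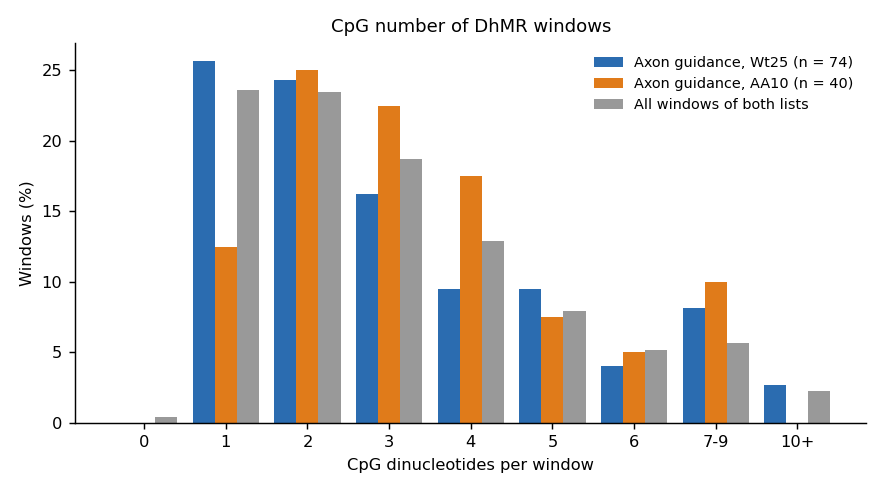
Percent of windows (vertical axis) by number of CpG dinucleotides in the window (horizontal axis) for the 74 Wt25 windows (blue) and 40 AA10 windows (orange) of axon guidance genes and for all windows of both lists (grey). The blue bar at 1 CpG reaches 25.7% and the orange bar 12.5%, and windows with 10 or more were found on the Wt25 side alone among the members.

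Of 71 other gene symbols, listed for genes that carry or modulate these signals, 69 were matched and 2, *Hjv* and *Pak5*, were not. Of the 69 genes, 46 had 154 windows, 107 of Wt25 and 47 of AA10 (69.5%, 61.8 to 76.2). Windows of Wt25 alone were found at 25 of these genes, of AA10 alone at 14 and of both at 7. A Wt25 window was thus present at 46.4% of them against 22.8% of all genes, an AA10 window at 30.4% against 17%, and both at 10.1% against 4.95%. Among the 41 of these genes of 100 kb or longer, 43.9% had a Wt25 window and 43.9% an AA10 window, against 45.5% and 37.3% of all genes of that length. Among the 28 shorter ones, 50% had a Wt25 window and 10.7% an AA10 window, against 19.9% and 14.4% of all shorter genes. Windows of both directions were present at 17.4% of all genes of 100 kb or longer. Of the 7 listed genes with both, *Arhgef12*, *Dock1*, *Lrrc4c*, *Pak7*, *Srgap2* and *Tiam1* were of that length and *Flrt1* was shorter. *Srgap1*, a GTPase-activating protein that binds Robo receptors, had 30 Wt25 windows, 27 of them inside the gene, and no AA10 window. *Lrrc4c*, whose product binds netrin-G1, had 32 Wt25 windows, all outside its span, and 27 of its windows lay in a dense run. Without these 2 genes the list had 45 Wt25 and 46 AA10 windows, a Wt25 share of 49.5% (39.4 to 59.5). They were left out after their values were seen, and genes with many AA10 windows were kept. Without chromosome 6 instead, the list had 107 Wt25 and 32 AA10 windows, a share of 77.0% (69.3 to 83.2). The direction of the list thus depended on which genes were counted. On the AA10 side were *Enah*, which links receptors to actin, with 9 windows, and the exchange factor *Trio*, which acts below Dcc, with 7, neither with a Wt25 window. *Lrrc4*, whose product binds netrin-G2, had 5 AA10 windows and lies on chromosome 6, where the 8 genes of the list had 15 AA10 windows and no Wt25 window. *Tiam1* had 2 Wt25 and 3 AA10 windows and *Flrt1* 3 and 2.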

How the data were processed

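The data were 5hmC-DIP of Wt25 and AA10 ESCs, 3 libraries per line. Per the methods, the authors kept uniquely aligned reads (STAR, GRCm38, Ensembl 87) and removed duplicates with Picard MarkDuplicates. MEDIPS then compared both lines over the 3 libraries in 200 bp bins, at *P* under 0.05 and a fold limit of 1. Bins with 1 bp or more in an IgG-DIP peak were filtered out, as were low-complexity sequences and simple tandem repeats, and HOMER gave the gene of each remaining bin. Tool versions are not given in the sources used here. The deposited values are positions, of which each window is listed with 198 bp, and a gene identifier. Whether the fold limit is linear or on a log2 scale is not given, so the smallest difference listed is unknown, and unique alignment with the repeat filters lowers the number of windows in repeats.

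Gene spans and transcripts came from GENCODE vM21, with introns and exons numbered on 1 main transcript per gene, and sequence and repeat marks (lower-case bases) from GRCm38.p6. A window took the feature of its midpoint, where a promoter reached from 1 kb before to 100 bp past a start. Windows with gaps of at most 10 bp were called touching. Positions are counted from 1. Members, families and the list of other pathway genes were chosen with earlier results of these data known. Every member with a window was named, and in depth those with most windows of a family, with both directions, with at least 3 windows of 1 direction, or with a promoter or coding exon window. *Srgap1* and the other pathway genes with at least 5 windows were named after their values were seen. Shares have Wilson intervals. Simulated windows with 8 known answers were run as a test, and all 8 were recovered. Python 3.11.15, pandas 2.3.3, pysam 0.24.0 and matplotlib 3.10.9 were used. RNA-seq and H3K27ac were not analysed here.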

Additional observations from a re-analysis of the deposited data

How the results depend on the processing

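No paired analysis was possible because the lists pool the 3 libraries of each line, and for the same reason no library could be left out and no stricter threshold set. Of 68 values recomputed under other settings, 60 kept their direction and stayed close to the value reported. Some of the 60 could not change, because the setting left the same windows in place. Leaving out chromosome 6 removed no window of the semaphorins, the Slit and Robo system or the netrin system. Leaving out dense runs removed no member window, and joining close windows joined none of the semaphorins or the netrin system. The count of 60 is therefore not a measure of how stable the results are. The Wt25 share of all member windows lay between 60.3% and 69.2% under every setting tried, and that of all genes between 58.5% and 61.4%. Without *Ephb2* the members had 61 Wt25 and 40 AA10 windows, a share of 60.4% against 58.7% for all genes. With windows inside the spans alone the members lay below all genes (60.3% against 61.1%). With the same windows the share of the ligands fell from 62.7% to 46.7%. The share of the Slit and Robo system moved from 60.9% to 80% with windows taken by the deposited identifier alone, which drops the *Slit3* windows listed under *Mir218-2*, and to 86.7% without *Slit3*. The share of the netrin system crossed to the AA10 side, from 52.6% to 40% with windows inside the span alone and to 40% with windows by identifier limited to 100 kb, since the distant *Unc5d* windows are then left out. Counting windows inside the span alone lowered the members with a Wt25 window from 30 to 18 and the density from 0.921 to 0.509 windows per 100 kb. The share of the other pathway genes moved from 69.5% to 49.5% without *Srgap1* and *Lrrc4c*. RefSeq spans, the 100 kb limit, the split of ligands and receptors by span, and leaving out *Nrp2*, *Slit3* or both pathway genes were chosen after seeing the data.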
